A study of Zea mays with 12 samples.

Results

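Messenger RNA of 2 starch synthase genes and 2 starch branching enzyme genes was followed through maize endosperm of 4 genotypes. The genes were taken by symbol or RefSeq synonym: wx1 (LOC541854), ss1 (LOC541669), ae1 (LOC542238) and sbe1 (LOC542315). They account for 5 of the 17621 probe sets on the array that were not controls, 2 for ae1 and 1 for each of the others. All 5 were bright enough to be tested, among 10708 in all. Another gene that also carries the name ae1 in RefSeq was left out.

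The study compared the hybrids B73xMo17 and Mo17xB73 with each other and with the inbred lines B73 and Mo17. Endosperm was collected from field-grown plants 13 days after pollination, with 3 one-colour Affymetrix arrays per genotype, 12 in all. Replicates 1, 2 and 3 stand for 3 crossing dates, each shared by the 4 genotypes. Each array held pooled RNA from endosperms of 6 ears, so variation between single kernels or ears was not measured; the growth protocol gives 6 endosperms per ear and 36 in the pool, whereas the series design gives 5 per ear. The parent written first is taken as the mother, by maize convention, which the labels do not state. Endosperm holds 2 genome copies from the mother and 1 from the father, so the hybrids carry the same alleles in opposite dosage. B73 and Mo17 are inbred, and no group carries a transgene or a treatment according to the labels.

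Starch is built in the amyloplasts of the starchy endosperm from ADP-glucose. The granule-bound starch synthase encoded by wx1, the gene mutated in waxy maize, makes the unbranched polymer amylose. The soluble starch synthase encoded by ss1 extends short outer chains of amylopectin. Branching enzymes cut a chain and rejoin it as a branch: ae1, named for the amylose-extender mutant, encodes isoform IIb, and sbe1 encodes isoform I.

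Values are MAS5 signals scaled so that every array had the same median, and have no absolute unit. Probe sets differ in how strongly they bind, so levels are compared between genotypes for the same probe set and never between genes. The deposited arrays were not equally bright. On B73xMo17 replicates 1 and 2 the median lay at -0.27 and -0.33 relative to the mean of all arrays (log2), and the hybridization spike-ins lay at -0.33 and -0.34; on the other 10 arrays the spike-ins lay between -0.07 and 0.28. Comparisons of B73xMo17 are given with and without these 2 arrays. Without them B73xMo17 is represented by 1 array, which is assumed to vary like the other genotypes. In whole endosperm, fewer cells of a type and less RNA per cell cannot be told apart.

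All 8 measured markers of starchy endosperm passed the brightness filter. The zein gene dzs18 was near or below the floor of 14.9 in Mo17 (10.2, 26.7 and 2), against 16400 to 18400 in B73. Among the others, fl2 averaged 192.9 in Mo17 and 2009 in B73, and o2 averaged 348.2 and 4864. The summed signal of the 8, which are transcription factor, zein and ADP-glucose pyrophosphorylase genes, ran from 75080 to 81080 in B73xMo17, 43090 to 53320 in Mo17xB73, 76530 to 77540 in B73 and 37870 to 41410 in Mo17. Without dzs18 the sums ran from 60040 to 61910, 39890 to 48040, 59100 to 60940 and 37850 to 41410 in the same order of genotypes. This list shares sh2 and bt2 with the starch pathway. The summed signal of the 6 basal transfer layer genes ran the other way, from 1666 to 7498 in B73xMo17, 6739 to 18840 in Mo17xB73, 1683 to 10970 in B73 and 5144 to 18790 in Mo17. Embryo markers (5 measured, 3 of them tested) summed to 3727 to 4622, 2941 to 4622, 3590 to 4775 and 3777 to 4349 in the same order of genotypes. The 3 measured aleurone genes summed to between 235.6 and 357.6 on all arrays. Of 4 markers of green tissue, pep1 and rbcs1 did not pass the brightness filter, and me3 averaged between 194.7 and 278.4 per genotype. The fourth, ppdk, which endosperm also expresses, averaged 13580 in B73xMo17, 9164 in Mo17xB73, 12660 in B73 and 8740 in Mo17. These 4 markers summed to 13230 to 14330, 8819 to 9922, 12680 to 13390 and 7701 to 9921 in the same order of genotypes. The part of these cell types in the results below was not tested.

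The granule-bound starch synthase gene wx1 showed the largest differences of the 4 genes between the inbreds and between the hybrids. Its signal was 9538, 9274 and 9321 in B73xMo17 and 6415, 4619 and 6639 in Mo17xB73 at crossing dates 1, 2 and 3. The inbreds gave 8843, 8889 and 8697 in B73 and 5104, 3053 and 4494 in Mo17. The 6 arrays with B73 written first all lay above the 6 with Mo17 written first, and no value of one set reached the other. The summed starchy endosperm markers divide the arrays in the same way, with and without dzs18, and their part in the result was not tested.

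B73 was 2.14-fold above Mo17 (log2 1.10 ± 0.16 SE, 95% interval 0.74 to 1.45, adjusted p 8.75e-05, n = 3 each). B73xMo17 was 1.61-fold above Mo17xB73 (0.69 ± 0.16, 0.34 to 1.04, adjusted p 0.00754). B73 also exceeded Mo17 with the arrays as deposited (0.96, adjusted p 0.000232). The call between the hybrids was lost on the deposited scale (0.42, adjusted p 0.0799) and without the 2 dim arrays (0.68, adjusted p 0.0914).

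Going down the levels of wx1, B73xMo17 came first and B73 next. Their difference did not pass in limma (0.09 ± 0.16, interval -0.26 to 0.44, adjusted p 0.797). It was -0.06 as deposited and 0.08 without the 2 dim arrays. That SE pools all genotypes. The log2 SD was 0.022 in B73xMo17 and 0.017 in B73, against 0.289 in Mo17xB73 and 0.386 in Mo17. With median scaling B73xMo17 (9274 to 9538) did not overlap B73 (8697 to 8889), as for 27.4% of all probe sets in either direction. Mo17xB73 followed, 1.51-fold below B73 (-0.60 ± 0.16, adjusted p 0.0104), a call that missed the threshold on the deposited scale (adjusted p 0.0508) and after quantile normalization (adjusted p 0.0667). Mo17 was lowest. Mo17xB73 stood at 0.50 ± 0.16 relative to Mo17 (interval 0.15 to 0.85), with adjusted p 0.0665 in the fit without crossing date and 0.0113 with date as a block. With equal trimmed means it was 0.56 (adjusted p 0.0464). Without Mo17xB73 replicate 2 or Mo17 replicate 1 this difference passed, at 0.66 and 0.65 (adjusted p 0.0153 and 0.0256). Without Mo17 replicate 2 it was 0.28, and without Mo17xB73 replicate 1 or 3 it was 0.43 and 0.40 (adjusted p 0.202, 0.209 and 0.208). B73xMo17 was 2.27-fold above Mo17 (1.19 ± 0.16, adjusted p 7.2e-05; 1.18 and 0.00581 without the 2 dim arrays; 0.90 and 0.000445 as deposited).

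The spread of wx1 between crossing dates was unequal among genotypes. Its SD was 141 on a mean of 9377 in B73xMo17 and 101 on a mean of 8810 in B73, against 1108 on 5891 in Mo17xB73 and 1053 on 4217 in Mo17 (n = 3 each). Date 2 was the lowest in both Mo17xB73 and Mo17. The summed basal transfer layer signal was also lowest at date 2 in every genotype, at 1666 in B73xMo17, 6739 in Mo17xB73, 1683 in B73 and 5144 in Mo17, and its part was not tested. With median scaling, in neither B73xMo17 nor B73 did the highest wx1 value exceed the lowest by more than 2.85%. The deposited signals at dates 1, 2 and 3 were 7910, 7374 and 9675 in B73xMo17 and 8821, 8752 and 8321 in B73, so the narrow range in B73xMo17 rests on the scaling. With the scale set to 0 at Mo17 and 100 at B73, Mo17xB73 stood at 36.1 (35.1, 26.8 and 51.0 at dates 1, 2 and 3), where a dosage of 1 in 3 gives 33.3. On that scale B73xMo17 stood at 112 (119, 107 and 115), where a dosage of 2 in 3 gives 66.7.

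**Figure D1:**
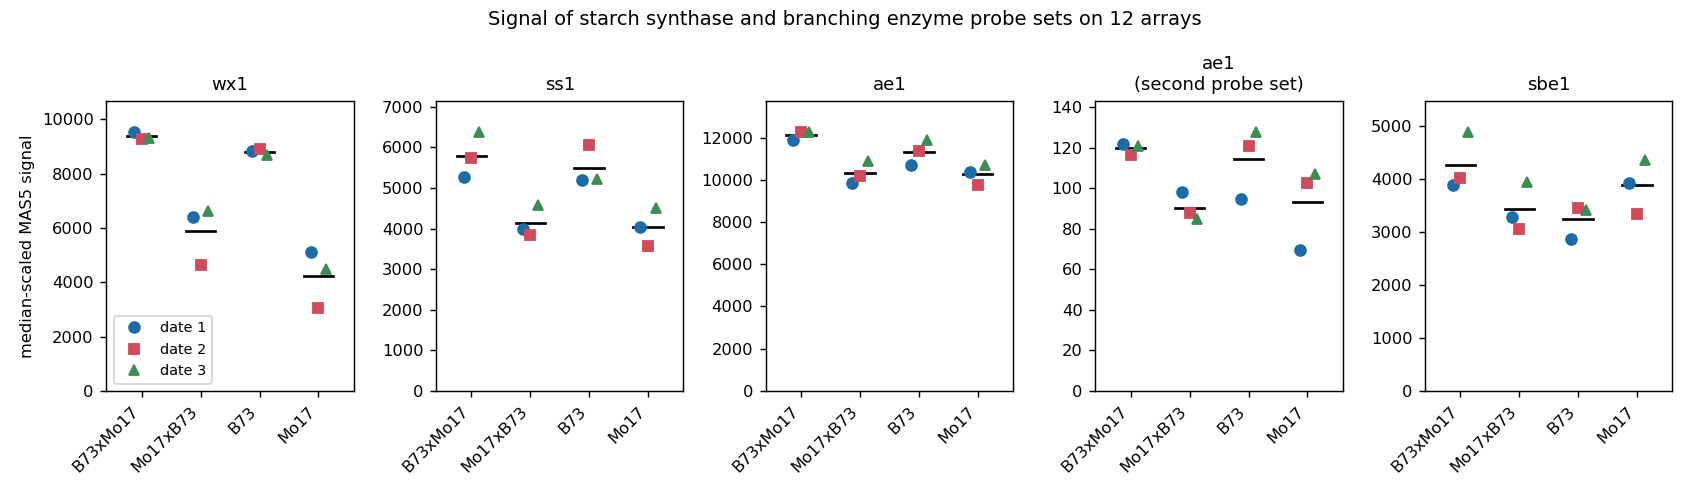
Median-scaled MAS5 signal (linear axis from 0, no absolute unit) of each probe set on the 12 arrays, by genotype. Points are single arrays, their colour and shape give the crossing date, and bars are means of 3 arrays; wx1 in Mo17xB73 and Mo17 was lowest at date 2, at 4619 and 3053, and sbe1 was highest in B73xMo17 at date 3, at 4896.

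For ss1, the soluble starch synthase gene, the hybrids lay beside the parent written first. The signal was 5262, 5739 and 6384 in B73xMo17 and 3996, 3842 and 4582 in Mo17xB73. It was 5194, 6068 and 5210 in B73 and 4030, 3562 and 4504 in Mo17. The lowest value with B73 written first, 5194, was above the highest with Mo17 written first, 4582. As for wx1, the share of all probe sets that divide the arrays in this way was not counted.

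B73 was 1.36-fold above Mo17 (0.45 ± 0.11, interval 0.22 to 0.68, adjusted p 0.00313). Between the hybrids the difference was 1.40-fold in favour of B73xMo17 (0.48 ± 0.11, interval 0.26 to 0.71, adjusted p 0.00492; 0.63 and 0.0209 without the 2 dim arrays). B73xMo17 was 1.44-fold above Mo17 (0.53 ± 0.11, adjusted p 0.00133; 0.67 and 0.00674 without the 2 dim arrays), and Mo17xB73 was 1.33-fold below B73 (-0.41 ± 0.11, adjusted p 0.00799). These 4 calls were lost with the arrays as deposited, at 0.32, 0.22, 0.24 and -0.30 in the same order (adjusted p 0.102, 0.286, 0.186 and 0.170).

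Neither hybrid differed from the parent written first beyond the spread of ss1. B73xMo17 against B73 gave 0.08 ± 0.11 (interval -0.15 to 0.31, adjusted p 0.720; -0.08 as deposited; 0.22 without the 2 dim arrays). Mo17xB73 against Mo17 gave 0.04 ± 0.11 (interval -0.19 to 0.27, adjusted p 0.837). On the scale from Mo17 at 0 to B73 at 100, Mo17xB73 stood at 7.85 (-2.91, 11.2 and 11.1 by date) and B73xMo17 at 121 (106, 86.9 and 266). At date 3 the ss1 values of the inbreds lay close together, 5210 in B73 and 4504 in Mo17, and the scale is correspondingly loose there.

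The branching enzyme gene ae1 was read by a bright and a dim probe set. The bright one ranked between the 99.0 and 99.5 percentiles of its array everywhere and varied least, 1.26-fold from the lowest to the highest array. Its signal was 11905, 12251 and 12267 in B73xMo17, 9854, 10168 and 10889 in Mo17xB73, 10711, 11378 and 11896 in B73, and 10371, 9763 and 10690.3 in Mo17. All 3 B73xMo17 arrays lay above every other array, the nearest being B73 at 11896. Against B73 alone, B73xMo17 did not overlap for 27.4% of all probe sets, in either direction.

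ae1 was 1.18-fold higher in B73xMo17 than in Mo17xB73 (0.24 ± 0.06, interval 0.12 to 0.36, adjusted p 0.00808), but stood at -0.03 as deposited and at 0.06 after quantile normalization (adjusted p 0.870 and 0.289). Without the 2 dim arrays it was 0.25, with adjusted p 0.0714. It was also 1.18-fold higher in B73xMo17 than in Mo17 (0.24 ± 0.06, adjusted p 0.00373; 0.26 and 0.0445 without the dim arrays), but stood at -0.04 as deposited and 0.08 after quantile normalization (adjusted p 0.737 and 0.124).

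Between B73 and Mo17 the difference of ae1 was 0.14 ± 0.06 (interval 0.02 to 0.26), which just missed the threshold with adjusted p 0.0537 and passed at 0.0136 with date as a block. Quantile normalization turned it to -0.02, and on the deposited scale it was 0.01 (adjusted p 0.956). Leaving out Mo17xB73 replicate 1 or 3, B73 replicate 1 or Mo17 replicate 3 gave 0.14, 0.14, 0.18 and 0.17, each with adjusted p under 0.05 (0.0481, 0.0486, 0.0271 and 0.0467). When any other single array was left out the difference did not pass, with adjusted p up to 0.198. Mo17xB73 against B73 gave -0.14 ± 0.06 (adjusted p 0.0718; 0.0192 with date as a block; 0.04 after quantile normalization), and -0.18 without either Mo17xB73 replicate 3 or B73 replicate 1 (adjusted p 0.0405 and 0.0376). It was -0.02 as deposited (adjusted p 0.892) and -0.10 without B73 replicate 3 (adjusted p 0.237). In order of level ae1 ran B73xMo17, B73, Mo17xB73, Mo17, and no 2 neighbours in that order passed with median scaling: B73xMo17 against B73 gave 0.10 ± 0.06 (adjusted p 0.305; -0.05 as deposited; 0.16 and 0.0446 with equal trimmed means; 0.12 without the 2 dim arrays), and Mo17xB73 against Mo17 gave 0.00 ± 0.06 (adjusted p 0.975).

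The dim probe set of ae1 had signals between 69.3 and 127.9, around the brightness filter at 72.1 and between the 40.2 and 47.3 percentiles of its array. It read 122, 117 and 121 in B73xMo17, 98.4, 87.7 and 84.7 in Mo17xB73, 94.6, 121 and 128 in B73 and 69.3, 103 and 107 in Mo17. B73xMo17 did not overlap Mo17xB73, as for 44.0% of all probe sets, but the difference missed the threshold (0.41 ± 0.19, interval 0.01 to 0.82, adjusted p 0.114). It was 0.42 without the 2 dim arrays. Between B73 and Mo17 the difference also missed the threshold, and the groups overlapped (0.31 ± 0.19, adjusted p 0.180). Within genotypes the 2 probe sets of ae1 varied with little relation to each other, with a correlation of 0.13 over 12 arrays after the genotype means were removed.

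The other branching enzyme gene, sbe1, had a different order of genotypes. Its signal was 3884, 4028 and 4896 in B73xMo17, 3279.8, 3065 and 3952 in Mo17xB73, 2865, 3460.1 and 3428 in B73, and 3933, 3346 and 4367 in Mo17. B73xMo17 did not overlap B73, as for 27.4% of all probe sets, while it overlapped both Mo17xB73 and Mo17. The order of level was B73xMo17, Mo17, Mo17xB73, B73, with B73 lowest, whereas for the other 3 genes B73 ranked next to the top.

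No comparison of sbe1 between genotypes passed in the fit without crossing date, and 3 did with date as a block. B73 against Mo17 gave -0.25 ± 0.13 (interval -0.53 to 0.02, adjusted p 0.115; 0.0196 with the block; -0.29 and 0.0297 with equal trimmed means). B73xMo17 against Mo17xB73 gave 0.32 ± 0.13 (interval 0.04 to 0.59, adjusted p 0.0791; 0.00956 with the block; 0.05 as deposited; 0.52 and 0.0706 without the 2 dim arrays). B73xMo17 against B73 gave 0.39 ± 0.13 (interval 0.11 to 0.67, adjusted p 0.0761; 0.00634 with the block; 0.45 and 0.0137 with equal trimmed means; 0.60 and 0.116 without the 2 dim arrays).

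B73xMo17 lay above B73 at each date for sbe1, by 0.44, 0.22 and 0.51, and above Mo17xB73 by 0.24, 0.39 and 0.31. B73 against Mo17 changed sign among dates, at -0.46, 0.05 and -0.35. That difference passed without Mo17 replicate 2 (-0.36, adjusted p 0.0452), and the one between the hybrids passed without Mo17xB73 replicate 3 (0.42, adjusted p 0.0384). B73 against Mo17 was -0.16 without either B73 replicate 1 or Mo17 replicate 3 (adjusted p 0.348 and 0.356), and the hybrids differed by 0.21 without B73xMo17 replicate 3 (adjusted p 0.260). The remaining neighbours in the order, B73xMo17 and Mo17 (0.14 ± 0.13, adjusted p 0.395; -0.15 as deposited; 0.34 and 0.165 without the 2 dim arrays), Mo17xB73 and Mo17 (-0.18 ± 0.13, adjusted p 0.398), and Mo17xB73 and B73 (0.08 ± 0.13, adjusted p 0.669), did not differ beyond their spread; without Mo17xB73 replicate 3 or B73 replicate 1 the last stood at -0.03 and -0.01.

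**Figure D2:**
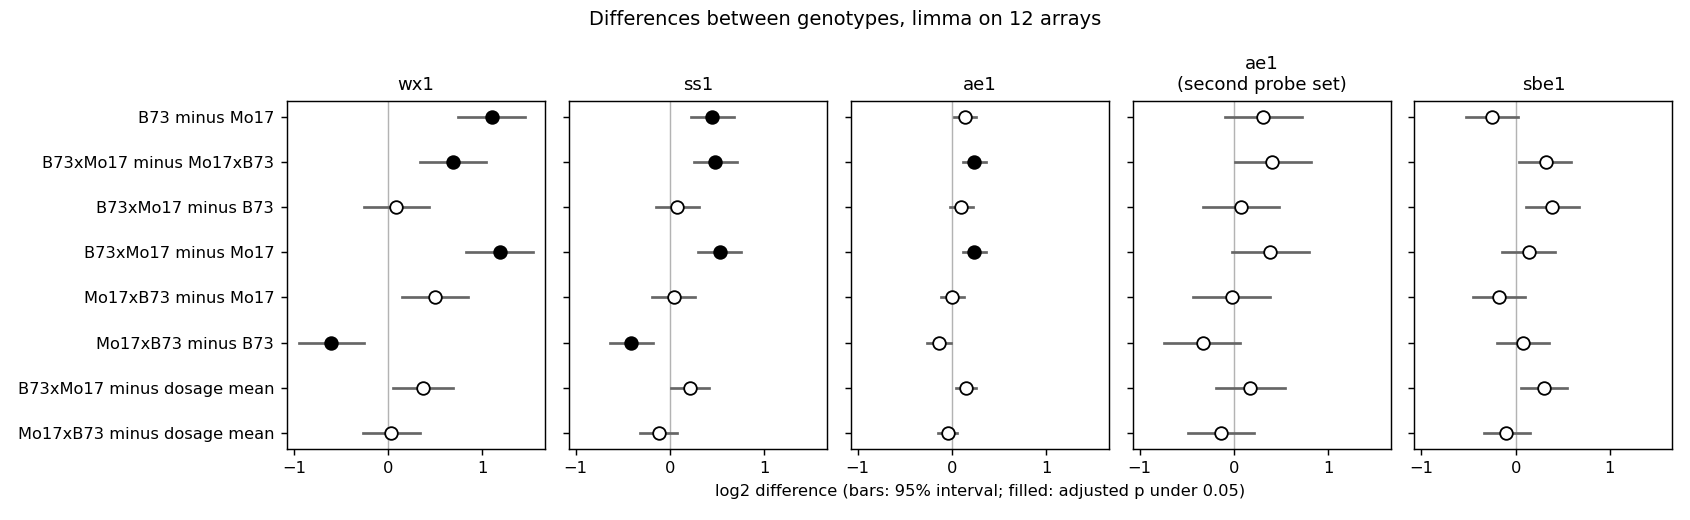
Log2 differences between genotypes for each probe set (horizontal axis), with 95% intervals from limma over 12 arrays; filled points passed at adjusted p under 0.05. For wx1 the difference between the inbreds was 1.10 and that between the hybrids 0.69, whereas for sbe1 the first was -0.25 and the second 0.32, neither of them past the threshold; ae1 between the hybrids, 0.24 here, was -0.03 on the deposited scale.

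Counted over the 5 probe sets, 2 passed between B73 and Mo17, wx1 and ss1, both higher in B73. Over all probe sets 51.4% passed in that comparison, 25.4% as higher in B73, and 59.4% had groups that did not overlap. Between B73xMo17 and Mo17xB73, 3 of 5 passed, wx1, ss1 and ae1, all higher in B73xMo17, in a comparison where 29.7% of all probe sets passed, 16.6% of all as higher in B73xMo17, and 44.0% did not overlap. With date as a block these counts became 4 and 4, beside 61.6% and 43.6% of all probe sets. On the deposited scale they were 1 and 0, beside 43.7% and 29.6%.

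Against the parents, the probe sets that passed were wx1, ss1 and ae1 for B73xMo17 over Mo17 (3 of 5; 47.5% of all probe sets, 20.4% as higher, and 57% not overlapping) and wx1 and ss1 for Mo17xB73 below B73 (2 of 5; 40.3% of all, 25.1% as lower, and 49.6% not overlapping). None of the 5 passed for B73xMo17 against B73 (9.59% of all) or for Mo17xB73 against Mo17 (12% of all, and 32.1% not overlapping) in limma, with 1 and 1 at an unadjusted p under 0.05, namely sbe1 and wx1. The shares of all probe sets under that unadjusted threshold were not counted. These comparisons share arrays, and the 2 probe sets of ae1 share a gene. On the deposited scale the split of all calls moved: the share of calls that were higher was 49.4% between B73 and Mo17 and 34.9% as deposited, 55.8% and 12.4% between B73xMo17 and Mo17xB73, 42.9% and 17% for B73xMo17 against Mo17, and 37.8% and 58.2% for Mo17xB73 against B73. For B73xMo17 against B73 it was 51.7% and 28.1%, and for Mo17xB73 against Mo17 it was 52.9% and 68.6%. With equal trimmed means and with quantile normalization these shares were 66.1% and 62.1% for B73xMo17 against B73, 66.9% and 65.3% for Mo17xB73 against Mo17, and 55% and 49.3% for Mo17xB73 against B73.

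Non-additive expression, which the series title names, was examined against a parental mean in which the inbred written first counts 2 times and the other inbred once; a hybrid's departure is its difference from that mean. This takes signal as proportional to RNA, which was not tested. wx1 in B73xMo17 had a level of 9377, against 7247 for the weighted mean of B73 and Mo17 (0.37 ± 0.15, interval 0.05 to 0.69, adjusted p 0.156). sbe1 had 4247 against 3446 (0.30 ± 0.11, interval 0.06 to 0.54, adjusted p 0.129), ae1 had 12140 against 10968 (0.15 ± 0.05, adjusted p 0.105; -0.05 as deposited) and ss1 had 5777 against 4988 (0.21 ± 0.09, adjusted p 0.199). B73xMo17 lay above the weighted mean at all 3 dates for each of these 4 genes, and how many of all probe sets did so was not counted. With arrays as deposited the departures were 0.19 for wx1, 0.10 for sbe1, -0.05 for ae1 and 0.02 for ss1.

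None of the 5 probe sets passed as a departure of B73xMo17 in limma without the block, against 4.69% of all probe sets (17.1% of those calls higher, 1.26% as deposited, 32.9% with equal trimmed means and 30.6% after quantile normalization). The bright probe sets of the 4 genes each had an unadjusted p under 0.05 (0.0273, 0.0187, 0.0122 and 0.0433 in the order above). The share of all probe sets under that unadjusted threshold was not counted. With date as a block wx1, sbe1 and ae1 passed (adjusted p 0.0354, 0.0148 and 0.0212), in a fit where 18.8% of all probe sets passed, 3.52% of all as higher. Without the 2 dim arrays, the departures were 0.36, 0.51, 0.16 and 0.36 in the same order, with adjusted p of 0.509, 0.240, 0.386 and 0.287.

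With median scaling Mo17xB73 lay below its weighted mean at all 3 dates for ss1, ae1 and sbe1. For wx1 it lay above that mean at 2 of the 3 dates. How many of all probe sets lay below at every date was not counted, and their median departure was -0.10. wx1 had a level of 5816 against 5684 (0.03 ± 0.14, interval -0.27 to 0.34, adjusted p 0.921), and ss1 had 4128 against 4501 (-0.12 ± 0.09, interval -0.32 to 0.07, adjusted p 0.507). ae1 had 10295 against 10618 (-0.04 ± 0.05, adjusted p 0.670; 0.03 after quantile normalization and 0.04 with equal trimmed means), and sbe1 had 3412 against 3652 (-0.10 ± 0.11, adjusted p 0.685). None of the 5 probe sets passed in limma without the block, against 1.35% of all probe sets (28.3% of those calls higher, 65.5% as deposited, 62.1% with equal trimmed means and 46.1% after quantile normalization). With date as a block 0 passed, against 7.47% of all probe sets. At an unadjusted p under 0.05 there were 0, and the share of all probe sets under that threshold was not counted. The wx1 departure changed sign, to -0.04, -0.06 and -0.08, without Mo17xB73 replicate 1, Mo17xB73 replicate 3 or Mo17 replicate 2.

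Across crossing dates sbe1 was the member that passed, with geometric means over genotypes of 3461, 3458 and 4125 at dates 1, 2 and 3 (moderated F 8.11, adjusted p 0.0407), in a test that 16.6% of all probe sets passed. Date 3 was the highest in B73xMo17, Mo17xB73 and Mo17, and in B73 date 2 was. The call was lost under most alternatives, with adjusted p between 0.0058 and 0.135 when single arrays were left out, 0.156 without the 2 dim arrays and 0.1 on the deposited scale. wx1 had geometric means of 7249.5, 5839 and 7013 (adjusted p 0.0871; 0.0234 as deposited), and passed without B73xMo17 replicate 2 or B73 replicate 2 (adjusted p 0.0490 and 0.0314). For ss1 the means were 4580.3, 4672 and 5118 (adjusted p 0.242), and for ae1 they were 10684, 10846 and 11417 (adjusted p 0.157).

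After the genotype means were removed, the 12 arrays gave correlations of 0.90 between ss1 and sbe1, 0.83 between ae1 and sbe1, 0.64 between ss1 and ae1, 0.57 between wx1 and sbe1, 0.55 between wx1 and ss1 and 0.43 between wx1 and ae1. With the genotype means left in, ss1 and ae1 gave 0.90 and wx1 and ss1 gave 0.88, whereas sbe1 gave 0.15 with wx1 and 0.39 with ss1. These values describe arrays that share scaling and crossing dates. The correlations of sbe1 with wx1, ss1 and the bright probe set of ae1 were higher with the genotype means removed than with them left in. With the dim probe set of ae1 they were 0.15 and 0.21.

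Other genes of the starch pathway were read from a list of 33 symbols, of which 11 distinct genes had a probe set and 9 were bright enough to be tested; du1 and iso3 were not. In B73 against Mo17, 6 of the 9 rose, 1 fell and 2 did not pass. Over all probe sets 51.4% passed, 25.4% of all as higher in B73. The median difference of the 9 was 0.20, beside 0.29 for the 4 genes above and -0.01 for all probe sets. The genes that rose include sus2, a sucrose synthase gene (2339 in B73 and 718 in Mo17, 1.70 ± 0.12, adjusted p 7.31e-08), and zpu1, a pullulanase-type debranching enzyme gene (558 and 323, 0.79 ± 0.22, adjusted p 0.00847). sh2 and bt2, the large and small subunits of endosperm ADP-glucose pyrophosphorylase, were higher by 0.25 ± 0.05 and 0.24 ± 0.06 (adjusted p 0.00212 and 0.00556). Both calls were lost after quantile normalization, at 0.01 and 0.08 (adjusted p 0.853 and 0.181). They were also lost as deposited, at 0.11 and 0.11 (adjusted p 0.3 and 0.424). The member that fell, named after its value was seen, was sus1, a second sucrose synthase gene (-0.40 ± 0.12, adjusted p 0.0127). With arrays as deposited only 2 of the 9 passed as higher, and 1 as lower, beside 15.3% and 28.5% of all probe sets. With date as a block 6 passed as higher and 2 as lower, beside 30.4% and 31.2%.

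In B73xMo17 against Mo17xB73, 5 of the 9 rose and none fell, with a median of 0.32, beside 0.40 for the 4 genes above and 0.04 for all probe sets. Over all probe sets 29.7% passed, 16.6% of all as higher in B73xMo17. The pyrophosphorylase subunit gene agpsemzm was 1.51-fold higher (4410.1 and 2926, 0.59 ± 0.08, adjusted p 0.000328) and sus2 was 1.5-fold higher (1625 and 1080.4, 0.59 ± 0.12, adjusted p 0.00349). sh2 and bt2 were higher by 0.32 ± 0.05 and 0.35 ± 0.06 (adjusted p 0.00122 and 0.00139). On the deposited scale none of the 9 was higher and 1 was lower, beside 3.67% and 25.9% of all probe sets. With date as a block 7 of the 9 were higher and 1 was lower, beside 24.1% and 19.5%. Without the 2 dim arrays, which leaves 1 array of B73xMo17, agpsemzm gave 0.71, sus2 0.57, bt2 0.32 and sh2 0.23.

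Against the parents the other pathway genes gave these counts. In B73xMo17, 7 of 9 were higher than in Mo17 and 1 was lower, beside 20.4% of all probe sets higher and 27.1% lower, with sus2 2.26-fold and zpu1 2.04-fold higher. On the deposited scale 2 of the 9 passed as higher and 2 as lower, beside 9.27% and 45.3% of all probe sets, and without the 2 dim arrays 4 passed as higher and 1 as lower, beside 14.7% and 15.1%. Against B73, none of the 9 was higher in B73xMo17 and 1 was lower, sus2 at -0.53 ± 0.12 (adjusted p 0.0143), beside 9.59% of all probe sets called. It did not pass when both dim arrays were left out (-0.55, adjusted p 0.155), nor without B73xMo17 replicate 1 (-0.48, adjusted p 0.0621) or B73 replicate 2 (-0.49, adjusted p 0.0579). In Mo17xB73, 4 of 9 were lower than in B73, beside 25.1% of all probe sets, with sus2 2.16-fold lower. On the deposited scale 1 of 9 passed as lower, beside 11% of all. With date as a block 6 of the 9 were lower and 1 was higher, beside 32.3% and 19.6% of all probe sets. In Mo17xB73 against Mo17, 1 of 9 was higher, sus2 at 0.59 ± 0.12 (adjusted p 0.0055), beside 12% of all probe sets called. With date as a block 1 was higher and 3 were lower, beside 8.65% and 13.7% of all. For B73xMo17 the block gave 7 higher and 1 lower against Mo17, beside 24.8% and 32.8% of all. Against B73 it gave 1 higher and 1 lower, beside 7.7% and 12.3%. None of the 9 departed from the weighted parental mean in B73xMo17 or in Mo17xB73 in limma, with 3 and 1 passing when date was a block, beside 18.8% and 7.47% of all probe sets.

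**Figure D3:**
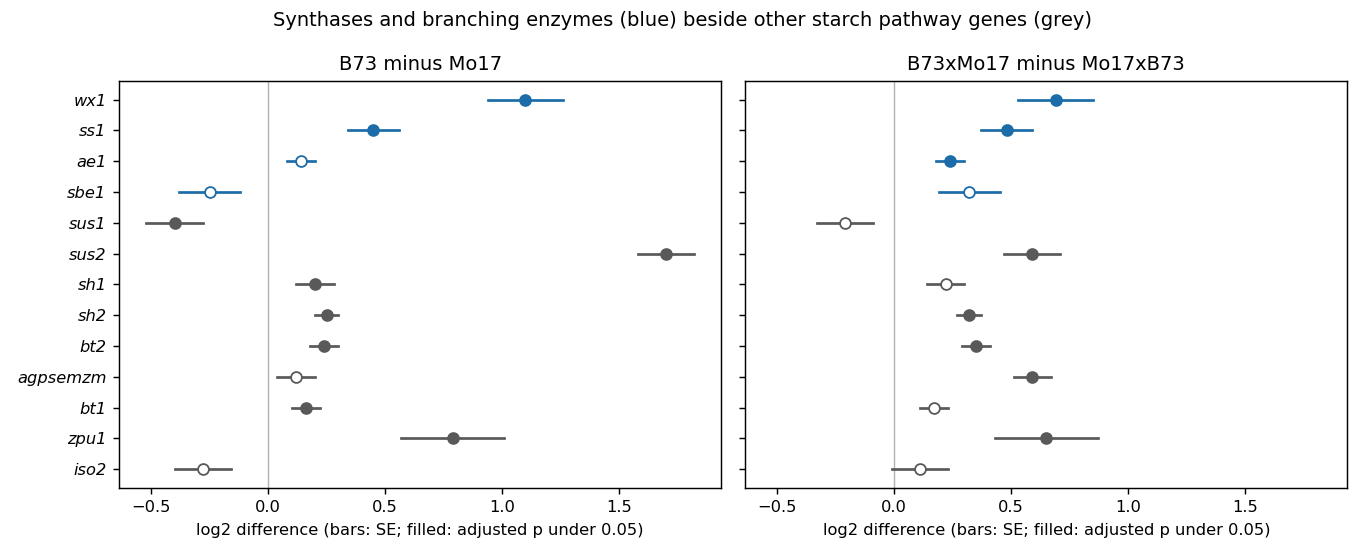
Log2 differences (horizontal axis, bars are SE from limma with n = 3 arrays per genotype) of the 4 genes in blue and the 9 other tested starch pathway genes in grey, for B73 minus Mo17 and for B73xMo17 minus Mo17xB73; filled points passed at adjusted p under 0.05. sus2 had the largest difference between the inbreds, 1.70, and sus1, iso2 and sbe1 lay below 0 there; on the deposited scale ae1, at 0.24 between the hybrids here, was -0.03.

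Among 625 other named genes tested, those whose signal followed wx1 most closely over the 12 arrays were the gamma zein gene gz50 (r 0.987), the alpha zein gene z1D_2 (0.979) and DER2.2, a derlin gene (0.976). For ss1 they were ubc7, which encodes a ubiquitin-conjugating enzyme (0.972), TOR (0.963) and L29 (0.959), and for ae1 ubc7 (0.957), the plastid ADP-glucose transporter gene bt1 (0.928) and the enolase gene eno1 (0.921). For sbe1 the values were lower: Sal1 had 0.894, Cystatin 0.861 and abcf1 0.828. These are descriptions of 12 arrays in 4 genotypes that share dates and scaling.

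With arrays as deposited the median of all probe sets lay at -0.14 for B73 minus Mo17 and -0.23 for B73xMo17 minus Mo17xB73, against -0.01 and 0.04 after median scaling. Scaling by 1 factor per array moves the log2 difference of every gene by the same amount: as deposited, the hybrids differed by 0.42 for wx1, 0.22 for ss1, 0.05 for sbe1 and -0.03 for ae1. Quantile normalization moves genes unequally, and gave 0.55 for wx1 and 0.06 for ae1. wx1 stayed between 0.96 and 1.10 for B73 minus Mo17 under the 4 scalings, and ss1 between 0.32 and 0.45.

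**Figure D4:**
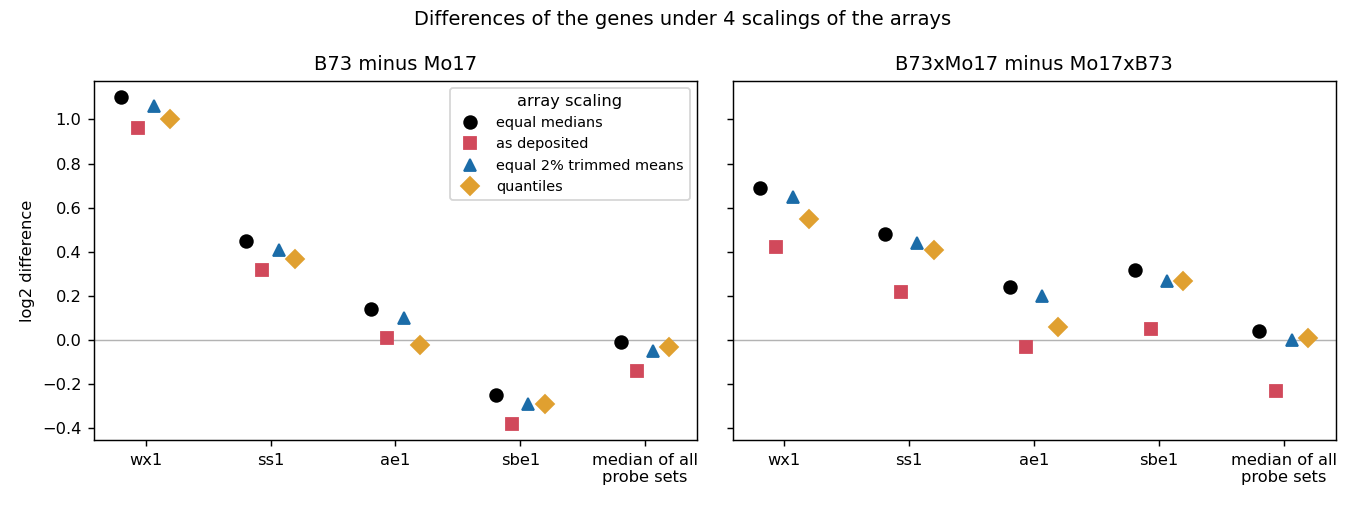
Log2 difference (vertical axis) of the 4 genes and of the median probe set for B73 minus Mo17 and B73xMo17 minus Mo17xB73, under 4 scalings of the arrays shown by colour and shape. Between the hybrids wx1 ran from 0.42 to 0.69 and ae1 from -0.03 to 0.24; for B73 minus Mo17 ae1 was -0.02 after quantile normalization.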

How the data were processed

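Total RNA (8 micrograms per array) was labelled with biotin in a one-cycle reaction, per the labels' protocols. The deposited values are linear MAS5 signal intensity, 1 per probe set and array, per the submitters' processing notes; the sources used here do not give the software version, scaling target or filters. The table held 17734 probe sets, 113 of them controls, which were left out. Probe sets were joined to genes by gene identifier through the annotation table and RefSeq (assembly Zm-B73-REFERENCE-NAM-5.0), where a match was found for 1377 of 1452 probe sets with a single gene. Sequences and genome positions were not used here.

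Each array was scaled to a common median, a floor was set at 14.9, the pooled 20th percentile, and values were put on a log2 scale. Probe sets with a mean above the pooled 40th percentile (72.1) were tested. The 4 genotype means were fitted to all arrays with limma 3.58.1 in R 4.3.3 (8 residual degrees of freedom, intensity trend), two-sided, with Benjamini-Hochberg adjustment over 10708 probe sets. Standard errors of the weighted parental mean came from the delta method. Crossing date was tested with a moderated F test beside genotype. The number of arrays limits the precision.

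The labels make each replicate number a crossing date. After removal of genotype means, the 18 pairs of arrays with the same number had correlations from 0.246 to 0.592 (mean 0.396), so the numbers pair the arrays, and values with date as a block stand where they change a call. Alternatives were other scalings, filters and floors, no variance trend, the block, and arrays left out.

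The 4 genes, the lists, the main scaling and the tests were chosen with earlier results of these data known. Named genes are all probe sets of the 4 genes, up to 4 called genes per comparison from the pathway list with the smallest adjusted p, and the 3 named genes most correlated with each. Each listed gene was read by its brightest probe set. The name agp2 stands for 2 genes, of which the one also called Agpsemzm was used, and mrp1 was left out because its name was ambiguous.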

Additional observations from a re-analysis of the deposited data

How the results depend on the processing

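Counts are of the 5 probe sets past adjusted p 0.05, except where all probe sets are named. With the arrays as deposited, 1 passed between B73 and Mo17, 0 between the hybrids, 1 for B73xMo17 against Mo17 and 0 for Mo17xB73 against B73. In the same order 43.7%, 29.6%, 54.5% and 26.4% of all probe sets passed. With equal trimmed means, 2 passed for B73xMo17 against B73, 1 for Mo17xB73 against Mo17 and 2 for B73xMo17 against the weighted mean, and 0 across dates. Beside these counts, 9.98%, 11.3%, 4.54% and 17.4% of all probe sets passed. With quantile normalization the same 4 counts were 1, 1, 1 and 0, beside 10.3%, 11.2%, 4.79% and 16.6% of all probe sets. There 1 passed for Mo17xB73 against B73, beside 40.5% of all. With the replicate block (crossing date), 4 passed between the inbreds, 1 for B73xMo17 against B73, 1 for Mo17xB73 against Mo17 and 3 for B73xMo17 against the weighted mean. In that order 61.6%, 20%, 22.4% and 18.8% of all probe sets passed with the block. The block ended no call. Without the 2 dim arrays, which leaves 1 array of B73xMo17, fewer passed between the hybrids and across dates, and so did fewer of all probe sets. Without the filter, and without the intensity trend, 0 passed across dates. Of all probe sets 616 passed across dates without the filter. Without the trend that number lay within the range for dates given below. Leaving out single arrays gave ranges of 2 to 3 between the inbreds, 3 to 4 between the hybrids, 0 to 1 for Mo17xB73 against Mo17, 2 to 3 for Mo17xB73 against B73 and 0 to 2 across dates. In the same order, the numbers of all probe sets that passed ran from 4896 to 5603, 2029 to 3195, 855 to 1327, 3591 to 4416 and 890 to 1997. The cause of these changes was not tested.

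No called difference became a called difference of the opposite sign under these alternatives. Signs changed as follows. As deposited, B73xMo17 minus B73 was -0.06 for wx1, -0.08 for ss1, -0.05 for ae1 and -0.07 for its dim probe set. B73xMo17 minus Mo17 was -0.04 for ae1, -0.15 for sbe1 and 0.00 for bt2. The hybrids gave -0.03 for ae1, and Mo17xB73 minus Mo17 gave -0.02. The departure of B73xMo17 was -0.05 for ae1 and -0.02 for its dim probe set. With quantile normalization ae1 gave -0.02 between the inbreds, 0.04 for Mo17xB73 minus B73 and 0.03 for the departure of Mo17xB73, and sh2 gave -0.01 for B73xMo17 minus Mo17. With equal trimmed means the last ae1 value was 0.04, and its dim probe set gave 0.05 for Mo17xB73 minus Mo17. Leaving out single arrays, Mo17xB73 minus Mo17 ran from -0.04 to 0.04 for ae1, -0.22 to 0.09 for its dim probe set and -0.05 to 0.12 for ss1. Mo17xB73 minus B73 ran from -0.03 to 0.15 for sbe1, B73xMo17 minus B73 from -0.05 to 0.16 for the dim probe set of ae1, and the departure of Mo17xB73 from -0.08 to 0.20 for wx1.

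Over all probe sets the counts called ranged, over all alternatives, from 3617 to 6593 between the inbreds (5503 as reported), 1563 to 4671 between the hybrids (3182), 349 to 2138 for B73xMo17 against B73 (1027), 3198 to 6166 against Mo17 (5082), 765 to 2397 for Mo17xB73 against Mo17 (1281), 2827 to 5558 against B73 (4320), 22 to 2539 for the departure of B73xMo17 (502), 23 to 800 for that of Mo17xB73 (145) and 616 to 1997 across dates (1780).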

Other observations

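The effect of Mo17 pollen in place of B73 pollen was compared between mothers in limma. For wx1 it was 0.09 on B73 mothers (B73xMo17 minus B73) and -0.50 on Mo17 mothers (Mo17 minus Mo17xB73), and the difference of the effects was 0.59 ± 0.23 (adjusted p 0.188). For ss1 the effects were 0.08 and -0.04 (difference 0.12 ± 0.15, adjusted p 0.698), for ae1 0.10 and 0.00 (0.11 ± 0.08, adjusted p 0.500) and for sbe1 0.39 and 0.18 (0.21 ± 0.18, adjusted p 0.546). None of these differences passed, and this comparison was not among the planned tests.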
